A study of Mus musculus with 36 samples.

Results

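The comparison of cannabidiol (CBD) given with lipopolysaccharide (LPS) against LPS alone at 4 h asked which transcripts CBD changed in microglial cells early after their activation. It rested on 6 of the 36 libraries of the series, namely the 3 LPS+CBD libraries and the 3 LPS libraries taken at 4 h, and on all 17166 genes listed for them. The cells were BV-2, an immortalised mouse microglial line of wild-type genotype, so every replicate was a culture of the same line in 3 independent experiments. The treated group received LPS at 600 ng/mL, a bacterial activator of microglia, with CBD at 6 µM, a non-intoxicating plant cannabinoid, and the comparison group received LPS at 600 ng/mL without a drug. Both groups were kept in medium with 0.1% serum, and ethanol was the vehicle of CBD. Vehicle was kept at 0.2% throughout, as DMSO, ethanol or water, and the sources used here do not say which of these the LPS group received, so CBD and its vehicle cannot be told apart in this comparison.

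Cells hold free zinc at very low levels. Transporters of the SLC30 family (ZnT) move zinc out of the cytosol, transporters of the SLC39 family (ZIP) move it in, and metallothioneins bind it. The zinc-sensing transcription factor Mtf1 binds metal response elements, short motifs in the promoters of metallothionein genes and of Slc30a1, when zinc rises. In microglia, LPS acts through the receptor Tlr4 and NF-kB to switch on cytokine and chemokine genes.

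The genes on which the results turn lie on 3 chromosomes of GRCm39. Slc30a1 (ENSMUSG00000037434, chromosome 1, 191638879 to 191645359), the zinc exporter of the plasma membrane, and Slc39a10 (ENSMUSG00000025986, chromosome 1, 46846704 to 46932012), a zinc importer, are protein coding, as are the metallothioneins Mt1 (ENSMUSG00000031765, chromosome 8, 94905710 to 94906955) and Mt2 (ENSMUSG00000031762, chromosome 8, 94899292 to 94900196). The chemokine gene Ccl4 (ENSMUSG00000018930, chromosome 11, 83553410 to 83555509) is protein coding too. The promoters of the 4 zinc genes are shown because these genes had the largest differences of the zinc handling list, 3 upward and 1 downward, as the 250 bases before the start of the canonical transcript in a GENCODE annotation of GRCm39, 5′ to 3′ on the gene's strand. Capitals mark the core of the metal response element, spelled TGCACNC or TGCGCNC and searched on both strands. The windows are chr1:191638593-191638842 on the plus strand for Slc30a1, chr8:94905460-94905709 on the plus strand for Mt1, chr8:94898882-94899131 on the plus strand for Mt2 and chr1:46893321-46893570 on the minus strand for Slc39a10.
Slc30a1: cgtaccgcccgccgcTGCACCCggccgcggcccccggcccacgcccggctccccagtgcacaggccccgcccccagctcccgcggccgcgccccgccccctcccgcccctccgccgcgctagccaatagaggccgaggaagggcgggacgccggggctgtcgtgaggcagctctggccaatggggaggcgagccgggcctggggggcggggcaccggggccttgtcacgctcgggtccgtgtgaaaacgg
Mt1: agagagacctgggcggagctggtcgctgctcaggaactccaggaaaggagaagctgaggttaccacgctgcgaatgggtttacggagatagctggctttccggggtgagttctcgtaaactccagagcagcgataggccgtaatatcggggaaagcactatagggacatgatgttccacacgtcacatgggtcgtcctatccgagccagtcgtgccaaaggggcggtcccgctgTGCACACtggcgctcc
Mt2: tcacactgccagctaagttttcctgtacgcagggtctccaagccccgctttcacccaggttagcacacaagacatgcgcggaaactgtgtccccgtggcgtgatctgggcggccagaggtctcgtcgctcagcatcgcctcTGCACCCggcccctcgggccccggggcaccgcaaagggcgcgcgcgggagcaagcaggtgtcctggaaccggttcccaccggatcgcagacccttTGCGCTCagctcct
Slc39a10: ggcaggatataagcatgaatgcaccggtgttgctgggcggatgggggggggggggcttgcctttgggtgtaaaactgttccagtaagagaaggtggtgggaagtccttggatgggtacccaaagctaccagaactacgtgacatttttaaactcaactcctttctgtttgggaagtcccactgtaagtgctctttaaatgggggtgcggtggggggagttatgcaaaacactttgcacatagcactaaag

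Counted over 300 bases, from 250 before to 50 after the start, the core was present 3 times at Mt1, 2 times at Mt2 and 2 times at Slc30a1, and it was not found at Slc39a10. At Mt1 the matches began 16 bases before the start and at bases 10 and 28 after it. At Slc30a1 they began 235 bases before the start and, on the opposite strand, at base 8 after it. Of 21770 promoters of protein-coding genes with the same window, 27.4% held the core at least 1 time, 7.14% at least 2 times and 1.98% at least 3 times. Among the 11356 of these promoters that belong to genes tested here, the shares were 33.6%, 9.35% and 2.62%. The count moved with the annotated start, since the other annotated start of Mt1, at base 94905869 of chromosome 8, had 5 matches in its window. The farthest upstream start of Mt2 had 0, and its starts at bases 94899200 and 94899488 had 3 and 4. For Slc30a1, Mt2 and Slc39a10 the canonical start used here does not coincide with the end of the gene span given above. A match is a description of the letters and not a bound site, and its absence from the Slc39a10 window says only that these letters are not there.

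Counted reads ranged from 15.6 M to 17.0 M over the 6 libraries, with 14594 to 14863 genes with at least 1 read, and mitochondrial genes took 1.99 to 2.25% of the reads. Of 15 microglia and macrophage markers, 13 were tested, with a summed level of 38093 to 45267 normalized counts in LPS and 37681 to 43734 in LPS+CBD. Csf1r lay between 9453 and 12049.8 in all 6 libraries, whereas the homeostatic markers P2ry12 and Tmem119 had at most 59.9. These are bulk libraries, so fewer cells expressing a gene and less of its RNA per cell cannot be told apart. The markers Fcrls and Sall1 were not in the table. Of the astrocyte, neuron, oligodendrocyte and T and B cell markers, the defining genes Gja1, Mog and Cd3e had at most 2.03 normalized counts in any library, and Mbp, a myelin gene that other cells also transcribe, had 959 to 1011. In both groups replicate 2 stood apart from replicates 1 and 3. The interferon regulator Irf7 shows it, at 1622, 4442 and 2078 normalized counts in LPS replicates 1 to 3 and at 1608, 4362 and 2595 in LPS+CBD replicates 1 to 3. Libraries with the same number deviated together, those of replicate 3 least clearly. Calls were therefore made with and without the replicate number as a block, and the blocked value is given where it bears on a call.

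Very few transcripts passed the test between LPS+CBD and LPS at 4 h, and those that did were genes of zinc handling and 1 chemokine. With 3 libraries a group, a gene that was not called is not thereby shown to be unchanged. Without the block, 1 of 11424 genes tested was called (limma, Benjamini-Hochberg adjusted p below 0.05, 0.00875% of the genes), the zinc exporter Slc30a1. With the block, 4 genes were called (0.035%), namely Slc30a1, Mt1 and Ccl4, which were higher with CBD, and Slc39a10, which was lower. At an unadjusted p below 0.05 there were 363 genes without the block (3.18%) and 1125 with it (9.85%). The groups did not overlap in 1166 genes (10.2%). The libraries left little room for large changes, since the 95% interval of the log2 fold change lay between -1 and 1 in 10610 genes (92.9%) without the block and in 10821 with it. The median log2 fold change over all genes was -0.0024. The plot of fold change against level shows Slc30a1, Mt1 and Slc39a10 outside the band of the other genes, and most other zinc handling genes within it.

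**Figure D1:**
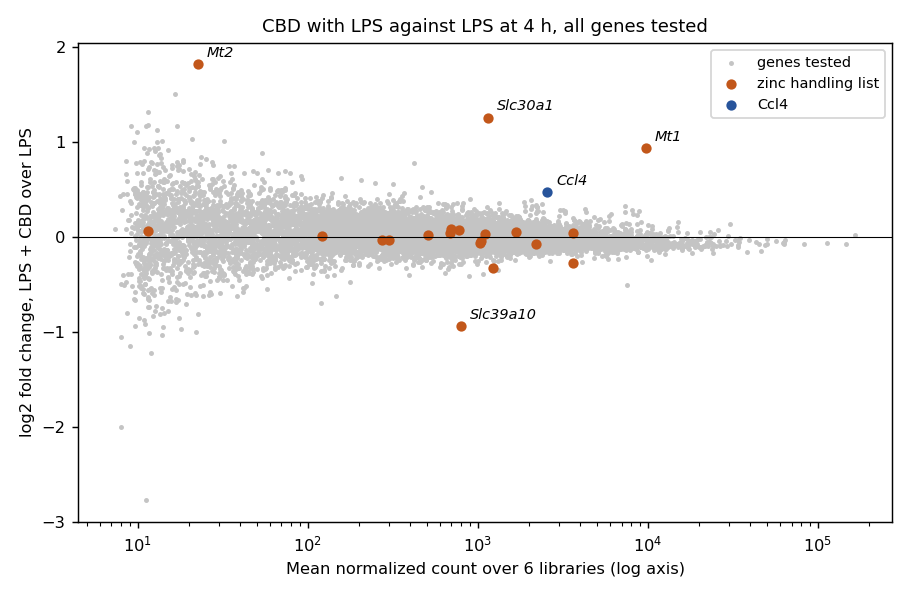
Each point is 1 of 11424 genes tested, with the mean normalized count over the 6 libraries on a log x axis and the log2 fold change of LPS+CBD over LPS at 4 h on the y axis. Slc30a1 (1.26), Mt1 (0.93) and Slc39a10 (-0.94), in orange with the rest of the zinc handling list, lie outside the band of genes of like level, and Ccl4 (0.47), in blue, at its edge.

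Slc30a1 was at 719, 630.3 and 666 normalized counts in LPS replicates 1 to 3 and at 1837, 1682 and 1336 in LPS+CBD replicates 1 to 3. Every LPS+CBD library lay above every LPS library, and LPS+CBD replicate 3 was the lowest of its group. The difference within each replicate number was 1.35, 1.41 and 1.0 on the log2 scale. The means were 672 ± 44.6 and 1618 ± 257 (SD, n = 3). The log2 fold change from the fit was 1.26 (SE 0.117, 95% interval 0.99 to 1.52, limma adjusted p = 0.034), which is a 2.39-fold rise. With the replicate block the SE was 0.0793 and the adjusted p 2.09e-05. The unblocked call did not stand without LPS replicate 1 (limma adjusted p = 0.0792), LPS replicate 3 (0.321), CBD replicate 1 (0.125) or CBD replicate 2 (0.388), while the log2 fold change stayed between 1.16 and 1.39 over the 6 libraries left out in turn.

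Mt1, the most abundant metallothionein transcript of these cells, was at 6742, 6843 and 6324 normalized counts in LPS and at 15344, 12941 and 10191 in LPS+CBD. The LPS libraries lay close together, and the LPS+CBD libraries were all higher and spread more widely, with replicate 3 again the lowest. The means were 6636 ± 275 and 12825 ± 2578 (SD, n = 3). The log2 fold change from the fit was 0.93 (SE 0.132), which is 1.91-fold. It was called with the replicate block (limma adjusted p = 0.000298) and not without it (adjusted p = 0.295). Mt1 and Mt2 are close relatives, and whether reads shared between them were split in the counting was not tested.

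Mt2 had few reads, at 7.98, 16.0 and 6.00 normalized counts in LPS and at 34.5, 41.6 and 29.7 in LPS+CBD. The groups did not overlap, and the log2 fold change was the largest of the zinc handling list at 1.81 (SE 0.368). It did not pass the test across all genes (limma adjusted p = 0.994 without the block and 0.0959 with it).

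Slc39a10 moved the other way. It was at 1109, 1080.1 and 964 normalized counts in LPS and at 472, 565 and 608 in LPS+CBD. All LPS+CBD libraries lay below all LPS libraries, with differences of -1.23, -0.93 and -0.66 on the log2 scale within replicates 1, 2 and 3. The mean was 1051 ± 76.5 in LPS and 549 ± 69.5 in LPS+CBD (SD, n = 3). The log2 fold change from the fit was -0.94 (SE 0.106), which is 0.520 of the LPS level. It was called with the replicate block (limma adjusted p = 0.000995) and not without it (adjusted p = 0.0766).

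**Figure D2:**
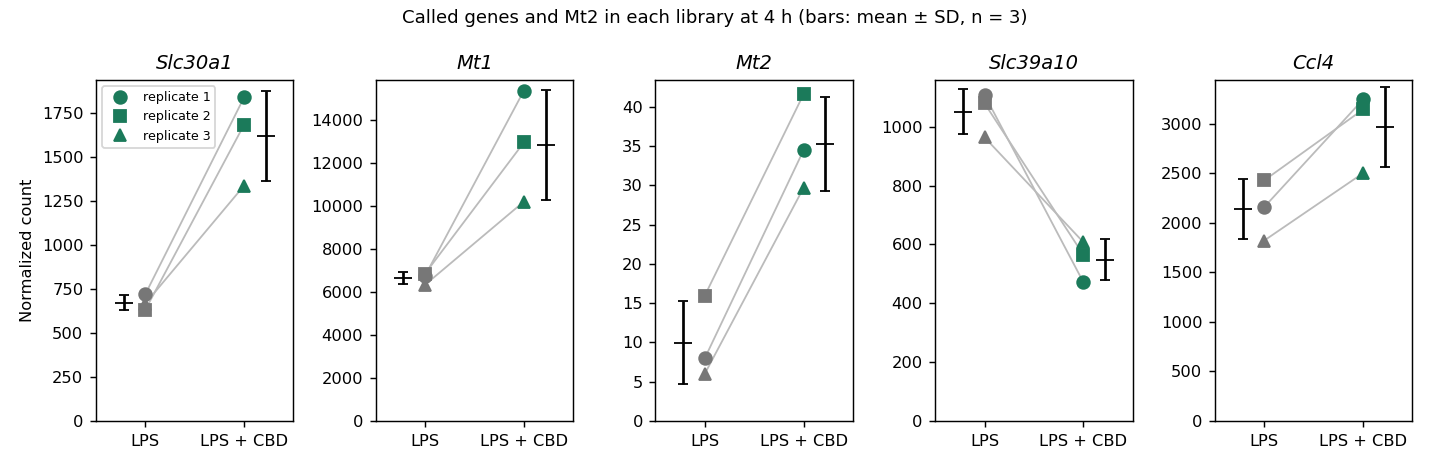
Normalized counts (y axis, from 0) of the 4 called genes and of Mt2 in each LPS and LPS+CBD library at 4 h. Lines join libraries with the same replicate number, and the bars beside them give the mean ± SD of 3 libraries. In all 5 genes the groups do not overlap, and all 3 lines run in the same direction.

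The zinc handling list held 29 genes, of which 27 were in the table and 20 passed the minimum of 10 normalized counts in 3 libraries. With the block, 3 of the 20 were called, 2 higher and 1 lower, and at an unadjusted p below 0.05 the block gave 3 higher and 3 lower, which is 6 of 20 against 9.85% of all genes. The list's median log2 fold change was 0.02, because most members lay near 0. Slc39a4, another zinc importer of the plasma membrane, was at 1214, 1533 and 1377 in LPS and at 954, 1199.6 and 1127 in LPS+CBD. Its groups did not overlap, and its log2 fold change was -0.33 (SE 0.111), with a limma adjusted p of 0.994, and of 0.112 with the block. Slc39a6, also an importer, was at 4761, 3254 and 3974 in LPS and at 3749.8, 2908 and 3171 in LPS+CBD. Its groups overlapped, but within each replicate number the LPS+CBD library was lower, and the log2 fold change was -0.28 (adjusted p = 0.177 with the block).

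The other zinc transporters showed no call and narrow intervals. The exporters that load the secretory pathway, Slc30a5, Slc30a6 and Slc30a7, had log2 fold changes of -0.07, -0.03 and 0.07. The importer Slc39a14, which also carries iron, had 0.04 (95% interval -0.15 to 0.22), and Slc39a1, a widely expressed importer, had 0.02 (-0.25 to 0.30). Mtf1 itself was at 724, 622 and 672 in LPS and at 739, 711 and 679 in LPS+CBD, so its transcript differed by 0.08 with an interval of -0.11 to 0.27. Of the 20 genes, 16 had an interval between -1 and 1 without the block. Slc39a5, near 11 normalized counts, had an interval of -0.70 to 0.82. The 7 further members were in the table below the minimum, among them Slc30a2, Slc30a10 and Mt3, each with at most 1.02 normalized counts in any library.

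**Figure D3:**
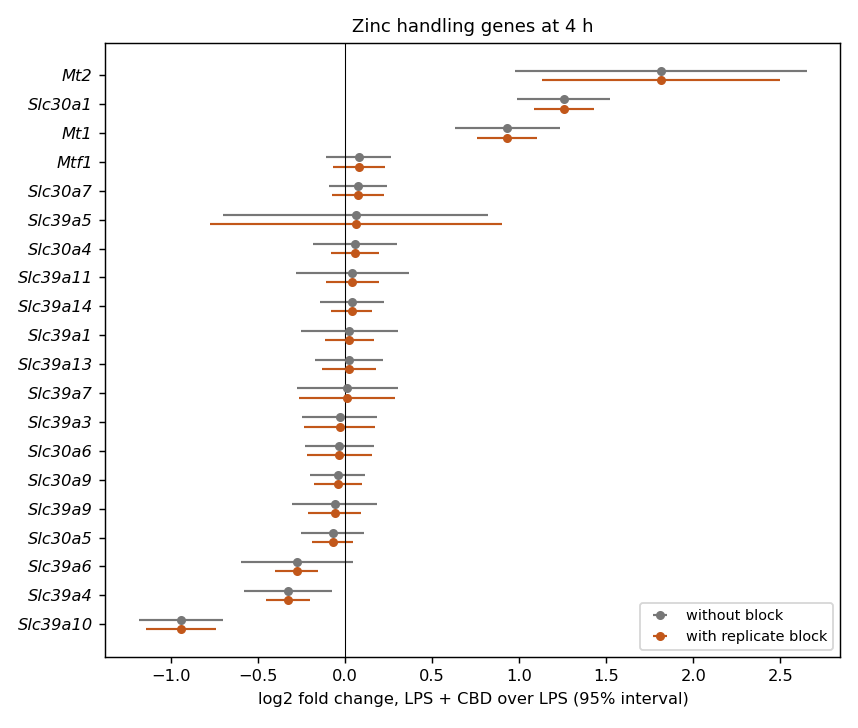
Log2 fold change of LPS+CBD over LPS (x axis) for the 20 zinc handling genes tested, with 95% intervals from limma without the block (grey) and with the replicate block (orange). Mt2, Slc30a1 and Mt1 lie to the right of 0, Slc39a10 and Slc39a4 to the left in both fits, and Slc39a6 to the left of 0 in the blocked fit.

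The levels of the called genes in all groups at 4 h, on 1 scale over 24 libraries, show where CBD stood among the treatments. Slc30a1 was at 668 ± 65.3 with DMSO alone, 713 ± 42.6 with ethanol (EtOH) alone and 690.4 ± 47.0 with LPS (SD, n = 3). It was at 757 ± 72.1 with LPS and monomethyl fumarate (MMF, 30 µM), at 1458 ± 144 with LPS and dimethyl fumarate (DMF, 30 µM) and at 1659.6 ± 264 with LPS and CBD. Every DMF and CBD library lay above every library of the other 4 groups. Mt1 was at 6685 ± 764 in DMSO, 6816 ± 555 in EtOH, 6819 ± 276 in LPS, 6745 ± 723 in LPS+MMF, 8651 ± 1836 in LPS+DMF and 13153 ± 2645 in LPS+CBD. Slc39a10 was lowest in LPS+CBD at 563 ± 71.3, with the other groups between 1080.1 and 1335. The EtOH libraries carried the vehicle of CBD without LPS. Like the DMSO libraries they have replicate numbers 4 to 6, whereas the LPS and LPS+CBD libraries have 1 to 3. An effect of ethanol together with LPS was not tested separately.

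MMF and DMF, fumarates used as immunomodulators, were given at another dose than CBD and with another vehicle, so these differences are between treatments as given. Against LPS+MMF, a comparison that shares the CBD libraries with the main one but no LPS library, 19 of 11432 genes were called (0.166%). On the log2 scale CBD less MMF was 1.13 for Slc30a1 (SE 0.12, limma adjusted p = 0.00507), -1.0 for Slc39a10 (SE 0.103, adjusted p = 0.00507), 0.95 for Mt1 (SE 0.135, adjusted p = 0.0312) and 2.35 for Mt2 (SE 0.352, adjusted p = 0.0421). The call of Slc30a1 did not stand without MMF replicate 3 (adjusted p = 0.0538), that of Mt2 without any of the MMF replicates 1 to 3 (0.0998, 0.0871 and 0.0908), and that of Mt1 without MMF replicate 2 or 3 or CBD replicate 1 or 2 (0.0567 to 0.226). With the replicate block 889 of the 11432 genes were called, so calls were far more common in that fit. They included all 4 as well as Ccl4 (log2 fold change 0.70, adjusted p = 1.73e-10) and Slc39a4 (-0.50, adjusted p = 3.61e-07).

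Against LPS+DMF, 1770 of 11409 genes were called (15.5%), so calls were common there. The exporter Slc30a1 differed by 0.19 on the log2 scale (SE 0.125, 95% interval -0.09 to 0.47, limma adjusted p = 0.345) and its libraries overlapped, at 1316, 1296 and 1535 with DMF and 1796, 1656 and 1304 with CBD. The importer Slc39a10 did differ, at 1166, 1351 and 1282 with DMF against 462, 557 and 594 with CBD, which is a difference of -1.24 on the log2 scale (SE 0.111, adjusted p = 0.000256). Slc39a4 was also lower with CBD (-0.60, adjusted p = 0.00609), and Mt2 was higher (1.71, adjusted p = 0.00418). Slc39a1 was higher with CBD than with DMF by 0.41 (adjusted p = 0.0434). On the scale over 24 libraries it was at 860 ± 107 in LPS+DMF, 1137 ± 120 in LPS+CBD and 1125 ± 178 in LPS. The call of Slc39a1 did not stand without DMF replicate 1 or 3 or CBD replicate 2 or 3 (0.0832 to 0.149). Mt1 was higher with CBD by 0.61 (adjusted p = 0.0396), with DMF replicate 1 above CBD replicate 3, and this call did not stand without DMF replicate 2 or 3 or CBD replicate 1 or 2 (0.0672 to 0.142). Slc39a13, an importer of the early secretory pathway, was higher with CBD than with DMF by 0.60 (adjusted p = 0.00542). On the scale over 24 libraries it was at 348 ± 29.0 in LPS+DMF, 524 ± 31.2 in LPS+CBD and 517 ± 33.1 in LPS. With the block 2 zinc transporters were added just below the threshold, Slc39a6 (-0.25, adjusted p = 0.175 without the block and 0.0474 with it) and Slc30a9 (-0.25, 0.0582 and 0.0497). The share of all genes called with the block is not reported here, so these additions were not set against it.

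The CBD effect at 24 h was then set against that at 4 h in 12 libraries of LPS and LPS+CBD, as an interaction term in limma. The difference between times was called in 3816 of 11959 genes (31.9%) and in 11 of 21 zinc handling genes. Slc30a1 had log2 fold changes of 1.24 at 4 h and 1.36 at 24 h, and the difference of 0.12 had an interval of -0.27 to 0.51 (adjusted p = 0.656). Mt1 went from 0.92 at 4 h to 2.53 at 24 h, a difference of 1.62 (SE 0.219, adjusted p = 0.000119). At 24 h its level was 3989, 3588 and 4513 in LPS and 22861, 18854 and 28731 in LPS+CBD. Slc39a10 went from -0.96 to -2.10, a difference of -1.15 (SE 0.184, adjusted p = 0.000407), and Slc39a4 from -0.34 to -1.75, a difference of -1.40 (SE 0.158, adjusted p = 3.4e-05). The effects on Mt1, Slc39a10 and Slc39a4 were thus larger at 24 h, whereas for Slc30a1 no difference between times was called. Slc39a6 went from -0.29 at 4 h to 0.53 at 24 h (difference 0.82, adjusted p = 0.00705). With the block the exporters Slc30a6 (difference 0.37, adjusted p = 0.0566 without the block and 0.0307 with it) and Slc30a7 (0.33, 0.0923 and 0.0127) were called as well. They were not set against the share of all genes called in the blocked interaction fit, which is not reported here.

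**Figure D4:**
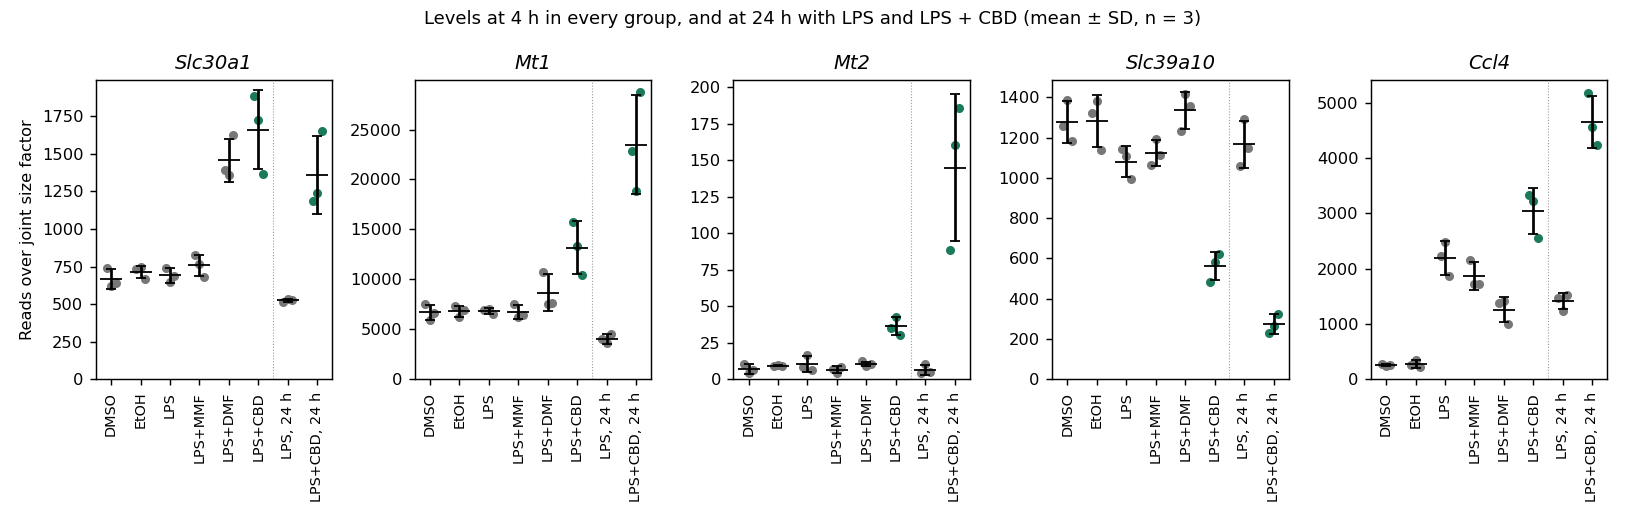
Reads divided by a joint size factor (y axis, from 0) in each of 3 libraries a group, with mean ± SD, for the 6 groups at 4 h and, right of the dotted line, LPS and LPS+CBD at 24 h. Groups with CBD are green. Slc30a1 is high in LPS+DMF, LPS+CBD and LPS+CBD at 24 h, Mt2 is high only in the CBD groups among those drawn, and Slc39a10 is low only there.

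Ccl4, a chemokine that attracts monocytes and lymphocytes, was the only gene outside zinc handling that limma called in the main comparison with all 6 libraries. It was at 2159.9, 2429.5 and 1822 normalized counts in LPS and at 3246, 3145 and 2502 in LPS+CBD. The groups did not overlap, and replicate 3 was the lowest of each. The means of 2137 ± 305 and 2964 ± 404 (SD, n = 3) differed by 0.47 on the log2 scale (SE 0.128, limma adjusted p = 0.994), and with the replicate block the SE was 0.0589 and the adjusted p 0.00989. Ccl4 was called under every blocked fit with all 6 libraries and under no unblocked fit. Its level was 260.3 ± 17.3 in DMSO and 275 ± 66.6 in EtOH, below all LPS libraries, and LPS+CBD was the highest group at 4 h. On the scale over 24 libraries Ccl4 was at 2196 ± 310 in LPS, 1259 ± 224 in LPS+DMF and 3040 ± 416 in LPS+CBD. Against LPS+DMF, itself below LPS, it was higher with CBD by 1.29 on the log2 scale (SE 0.148, adjusted p = 0.000726). The CBD effect against LPS was larger at 24 h by 1.28 (adjusted p = 0.000131).

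The inflammation list held 30 genes, of which 27 were tested and 1, Ccl4, was called with the block. With the block, 11 members were higher and 1 was lower at an unadjusted p below 0.05, against 9.85% of all genes, and the list's median log2 fold change was 0.16. Tnf, the cytokine tumour necrosis factor, was at 7169.8, 6247 and 6561 in LPS and at 8412, 7564 and 8019 in LPS+CBD. Its groups did not overlap, and they differed by 0.27 on the log2 scale (SE 0.0748), with a limma adjusted p of 0.994, and of 0.156 with the block. The activation marker Cd69 had 0.42 (adjusted p = 0.168 with the block) and the neutrophil chemokine Cxcl2 0.27 (0.189 with the block). Ptgs2, the inducible cyclooxygenase, was at 18487, 24056 and 17134.5 in LPS and at 18882, 25107 and 17987.5 in LPS+CBD, a log2 fold change of 0.05. Its groups overlapped, and replicate 2 was the highest of each.

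The 18 NF-kB pathway genes gave no call with limma. Without the block none had an unadjusted p below 0.05, and with the block 5 did, against 9.85% of all genes, all higher. The inhibitor Nfkbia had a log2 fold change of 0.14, and the subunits Rela, Nfkb1 and Nfkb2 had 0.01, 0.00015 and 0.11. All 18 had an interval between -1 and 1. Of 20 interferon response genes, 19 were tested, with no call, none at an unadjusted p below 0.05 without the block and 5 with it, against 9.85% of all genes, all higher. The antiviral gene Rsad2 was at 2199, 3529 and 2547 in LPS and at 1907, 5190.2 and 3572 in LPS+CBD, with replicate 2 the highest in both groups.

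All 24 Nrf2 pathway genes were tested and none was called. With the block 1 was higher and 3 were lower at an unadjusted p below 0.05, against 9.85% of all genes, and the median was -0.04. The autophagy receptor gene Sqstm1 was at 10474, 10979 and 10111 in LPS and at 9161, 9609 and 8697 in LPS+CBD, which differ by -0.20 on the log2 scale (SE 0.0681, limma adjusted p = 0.994, and 0.255 with the block). The thioredoxin reductase gene Txnrd1 had -0.04 (95% interval -0.21 to 0.14). Of the iron and copper genes, 16 of 17 were tested with no call. The copper exporter Atp7a was at 771, 702 and 759 in LPS and at 887, 879.9 and 790.3 in LPS+CBD, a log2 fold change of 0.20 (adjusted p = 0.419 with the block), and the ferritin genes Fth1 and Ftl1 had -0.05 and -0.09.

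Sterol and lipid genes differed by small amounts. Of 21 sterol synthesis genes, 20 were tested, and none was called. With the block 10 of them had an unadjusted p below 0.05, against 9.85% of all genes, all of them higher with CBD, and 1 had it without the block. The median log2 fold change was 0.13, and the range was -0.03 to 0.28. Insig1, which holds back sterol synthesis when sterols are plentiful, was at 2778, 3345 and 2743 in LPS and at 3273, 3984 and 3465 in LPS+CBD, a log2 fold change of 0.28 (limma adjusted p = 0.156 with the block), with the LPS replicate 2 above the lowest LPS+CBD library. Among 15 lipid efflux and storage genes 3 were lower at an unadjusted p below 0.05 in either fit, against 3.18% of all genes without the block and 9.85% with it, and none was called. The cholesterol exporter Abcg1 was at 1313, 1068 and 1268 in LPS and at 1010.5, 786 and 984 in LPS+CBD. Its groups did not overlap, and its log2 fold change of -0.40 had an adjusted p of 0.994 without the block and 0.0592 with it. The ubiquitin ligase gene Mylip had -0.24, and the lipid droplet gene Plin2 -0.18.

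The stress lists gave no call. Of 18 ATF4 response genes tested, Chac1, a glutathione-degrading enzyme, had a log2 fold change of 0.43, and Slc3a2, a subunit of amino acid exchangers, 0.16, while Atf4 itself had 0.04. Of 18 endoplasmic reticulum genes, Herpud1 had 0.25 and the chaperone Hspa5 0.03. Of 12 heat shock genes tested, Dnajb4 had 0.33 and Hspa8 0.07, and the inducible genes Hspa1a and Hspa1b were below the minimum. Of 20 immediate early genes, Fos was at 466, 549 and 543 in LPS and at 386, 458 and 401 in LPS+CBD, a log2 fold change of -0.32, and Klf6 had 0.17. Egr1 had 1.01 with only 6.00 to 28.4 normalized counts. All 22 cell division genes were tested, and Cdc20 had the lowest value of the list, -0.17. None of these named genes passed the test (limma adjusted p of 0.994 to 0.997 without the block and 0.187 to 0.893 with it).

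Of the 26 cannabidiol targets and endocannabinoid enzymes, 23 were in the table and 11 were tested, with no call. None had an unadjusted p below 0.05 without the block, and 2 did with it, against 9.85% of all genes, both higher, namely Naaa and Dagla, enzymes of endocannabinoid and related lipid turnover (adjusted p = 0.491 and 0.507 in limma with the block). The cannabinoid receptor gene Cnr2 was at 90.7, 88.8 and 84.0 in LPS and at 91.9, 105 and 95.2 in LPS+CBD, so its groups did not overlap, with a log2 fold change of 0.14 (95% interval -0.16 to 0.44). The channel gene Trpv2 lay between 1725 and 2135 in all 6 libraries, and the adenosine transporter gene Slc29a1 between 1770.0 and 1976. The channels Trpv1, Trpa1 and Trpm8, the serotonin receptor Htr1a and the nuclear receptor Pparg had at most 1.99 normalized counts in any library.

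**Figure D5:**
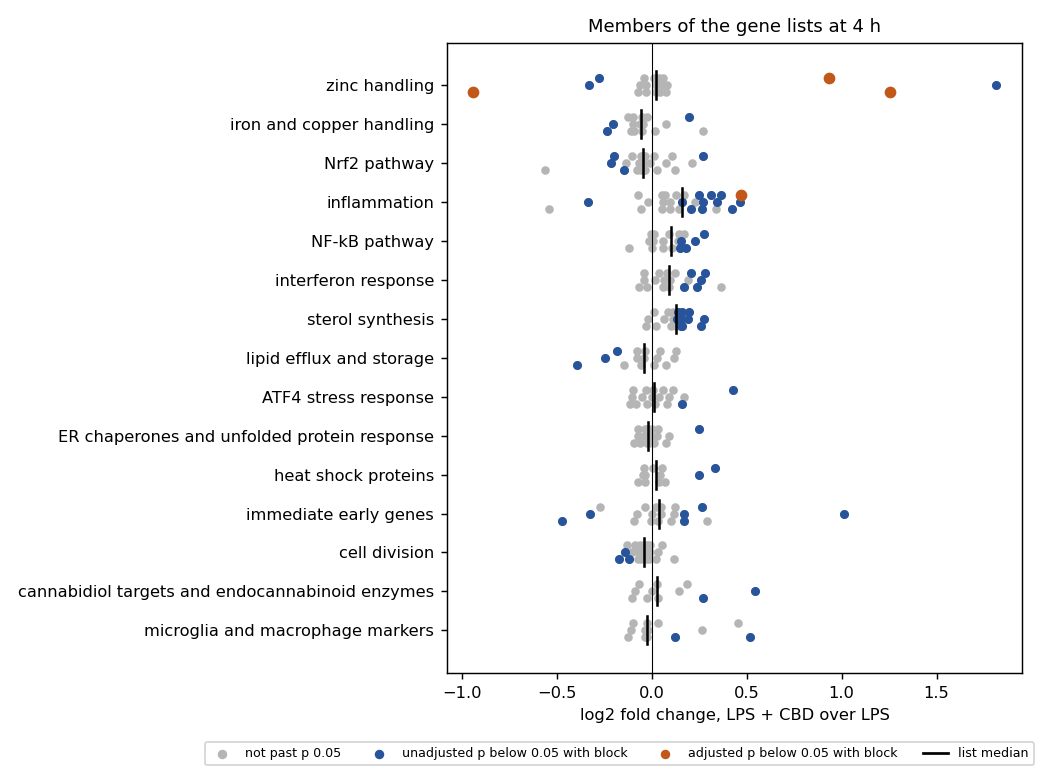
Log2 fold change of LPS+CBD over LPS at 4 h (x axis) for each tested member of the lists with at least 10 such members, with the list's median as a black bar. Orange points are called with the replicate block, blue points have an unadjusted p below 0.05 with it, and grey points do not.

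Among genes outside these lists none was called with limma or edgeR in the fits with all 6 libraries, with or without the block. DESeq2 with the block called 1 gene more than limma with it, Slfn4, a schlafen family gene named here after its values were seen. Slfn4 was at 1285, 2794 and 1674 in LPS and at 1536, 3653 and 2172 in LPS+CBD, so its groups overlapped while each LPS+CBD library lay above the LPS library of its number (0.34 on the log2 scale, limma adjusted p = 0.0884 with the block). By the size of the change, among genes with an unadjusted p below 0.05, a mean of at least 50 and groups that did not overlap, 156 were higher and 128 lower. After Slc30a1 and Mt1, the largest differences upward were in Pcdh1, a protocadherin (0.88), Ddb2, a DNA damage recognition gene (0.71), Tmc8 (0.70), Wnt6, a secreted Wnt ligand (0.68), Cldn12, a claudin (0.67), and Tmc4 (0.67). After Slc39a10, the largest downward were in Sec1, a fucosyltransferase gene (-0.55), Zfp607b (-0.52), Nox1, a superoxide-forming oxidase (-0.48), Serpinb9, a granzyme B inhibitor (-0.41), Gpr183, an oxysterol receptor (-0.41), Tincr (-0.40) and Abcg1 (-0.40). Their adjusted p was 0.994 without the block and 0.0592 to 0.451 with it. Gpr183 was at 484, 417 and 454 in LPS and at 354, 305 and 363 in LPS+CBD, whereas the genes with larger differences upward had means of 96.7 normalized counts or less in either group.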

How the data were processed

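RNA from BV-2 cells was sequenced as poly(A)-selected paired-end libraries, and the authors processed it with FastQC 0.12.1, Cutadapt 4.4, Trimmomatic 0.39, HISAT2 2.2.1, HTSeq 2.0.3 and DESeq2 1.40.2 in R 4.3.1, against GRCm39 with Ensembl 110. The strand setting is not given in the sources used here. The deposited signal values are HTSeq gene counts that the authors divided by DESeq2 size factors, table by table. The deposited fold changes and p-values of the authors' own comparisons were not used. Whole reads were recovered from 708590 values, of which 100% came out whole within 0.01 read, and 304868 values compared between tables gave 0 differences. On the count scale the libraries of the main comparison held 15.6 M to 17.0 M counted reads, and chi-square tests found no pair of replicates that agreed within sampling noise.

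Genes with at least 10 normalized counts in 3 of 6 libraries were tested with limma 3.58.1 (R 4.3.3, trended variance) on log2(normalized count + 1). A call is a Benjamini-Hochberg adjusted p below 0.05 over all genes tested, and fold changes are on this log scale, which understates those of low genes. The replicates are cultures of 1 line from 3 independent experiments. Same-numbered libraries deviated together (correlations of 0.657, 0.587 and 0.242 over genes with a mean of at least 50). LPS replicate 3 correlated nearly as much with LPS+CBD replicate 1 (0.21), so replicate 3 was only weakly tied to its own number. The other pairs of unlike number had -0.634 to -0.0027. The numbers were taken to pair the libraries, and a fit with the number as a block is given beside the fit without it. edgeR 4.0.16 and DESeq2 1.42.0 on recovered reads, other scalings, pseudocounts, filters and omitted libraries were alternatives. The fits were tested on simulated data. Named are all called genes, the 8 largest differences each way (unadjusted p below 0.05, mean of at least 50 in the higher group, no overlap) and list members with an unadjusted p below 0.05 or, up to 6 a list, the highest levels, with all zinc genes. Other list members were named after their values were seen. The members and lists were chosen with earlier results of these data known. Some members of the sterol synthesis list are not reported here by name.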

Additional observations from a re-analysis of the deposited data

Results flagged for a closer look

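The CBD effect differed between 24 h and 4 h in 3816 of 11959 genes (31.9%), by the interaction term in limma at an adjusted p below 0.05. Values are the log2 fold change at 24 h less that at 4 h. Among the metallothioneins, the difference was 2.53 for Mt2 and 1.62 for Mt1. Among the importers it was -1.40 for Slc39a4, -1.15 for Slc39a10 and -0.56 for Slc39a13, and it was 0.86 for Slc39a11, 0.82 for Slc39a6, 0.82 for Slc39a3, 0.67 for Slc39a7 and 0.52 for Slc39a9. The importers were therefore not moved in 1 direction. Mtf1, the zinc-sensing factor, had 0.31, and the chemokine gene Ccl4 had 1.28. The calls of Slc39a7 and Mtf1 did not stand under several omissions of 1 library. No cause of these differences was tested.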

How the results depend on the processing

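Of 11424 genes tested for CBD with LPS against LPS at 4 h, 1 was called, and the count was 4 with the replicate block, 3 with DESeq2, 4 with edgeR and the block, 5 with DESeq2 and the block, 2 without a filter and 3 with all 18 libraries at 4 h in 1 fit. It was 0 to 1 without 1 library, and 26, 756 and 29 without replicate 1, 2 and 3 of both groups in the blocked fit, which then has 1 residual degree of freedom a gene. Slc39a10 had an adjusted p of 1.91e-10 with DESeq2, 0.0485 without a filter and 0.000214 with 18 libraries, and Mt1 had 1.11e-08 with DESeq2 and 0.0154 with 18 libraries. CBD against MMF gave 19 calls, 889 with the replicate block and 9 to 13 without 1 library. CBD against DMF gave 1770 calls and 862 to 2023 without 1 library. The interaction gave 3816 calls and 1126 with an absolute difference above 1 as well, an alternative chosen after seeing the data. Over 97 results for single genes, 1220 alternative values kept direction and call, 48 passed the threshold only under the alternative, 34 no longer passed it, 41 uncalled values moved and none of the called values reversed. The cause of these changes was not tested. With 3 libraries a group the median 95% interval extended 0.24 on the log2 scale to either side without the block and 0.17 with it, which limits the differences that could be resolved in single genes.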

Other observations

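Replicate 2 also differed from replicates 1 and 3 in genes outside the lists, which were chosen after their values were seen. Ndrg1, a stress-regulated gene, was at 4421, 12613 and 5779 normalized counts in LPS and at 6597, 10612 and 8259 in LPS+CBD, so that its differences within replicates 1, 2 and 3 were 0.58, -0.25 and 0.52 on the log2 scale. The glucose transporter gene Slc2a1 had 0.52, -0.16 and 0.36, the cyclin gene Ccng2 0.99, -0.45 and 1.02, and the transferrin receptor gene Tfrc -0.37, 0.08 and -0.43. Without replicate 2 of both groups, in the blocked fit with 1 residual degree of freedom a gene, 756 genes were called, and in 308 of them the difference within replicate 2 had the opposite sign. These genes were selected for agreement between replicates 1 and 3, so the count of opposite signs is a description.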
